A study of Homo sapiens with 6 samples.

Results

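The genes whose symbols start with NDUF encode the nuclear subunits of mitochondrial complex I, some of the factors that assemble it, and a pair of proteins once counted among its subunits. They were found by matching the identifier of each row of the count table, without its version, to a protein-coding symbol starting with NDUF, which gave 47 of 19402 genes. Of these, 37 are subunits of the complex, 8 are assembly factors named NDUFAF, and NDUFA4 and NDUFA4L2 belong to neither class. NDUFC2-KCTD14, a readthrough gene of the same name family, was not analysed here.

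The libraries came from CFPAC1, an established human cell line of pancreatic ductal adenocarcinoma, grown in IMDM with fetal bovine serum, glutamine and antibiotics. The 3 wild-type (WT) libraries were each made from a pool of clones isolated by dilution after infection with the lentiCRIPSv2 plasmid (as the labels spell it), for which no guide is named. The 3 libraries labelled IRF1-KO were each made from a pool of genome-edited clones that had received the same plasmid with wild-type Cas9 and a guide RNA against IRF1, the gene of an interferon-responsive transcription factor. The libraries hold poly(A) RNA and no further treatment is named. The question is how the 37 subunits and the 8 assembly factors differ between the groups. Because each library is a pool of clones, clone differences are averaged within it, and the labels do not say whether pools were cultured separately; the p-values below reflect only how much these pools vary.

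Complex I is the first and largest enzyme of the respiratory chain: it takes electrons from NADH, passes them along iron-sulphur clusters to ubiquinone, and pumps protons across the inner mitochondrial membrane. Its core subunits carry the chemistry and fall into a NADH-oxidising end, a quinone-reducing part, and a proton-pumping membrane arm whose core is encoded by mitochondrial DNA. Accessory subunits surround this core and are needed for its stability, and assembly factors build the modules but are not part of the finished enzyme. In cells of a pancreatic ductal tumour, as elsewhere, the complex sets how much NADH can be oxidised by respiration.

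Total counts ranged from 16413682 to 28258075 per library. Levels are given as CPM, a gene's counts relative to its library's total after scaling by TMM factors. The IRF1 transcript itself stood at 87.3, 91.3 and 82.6 CPM in WT and at 117, 124 and 132 CPM in the libraries labelled IRF1-KO. Every library labelled IRF1-KO was thus above every WT library, by a log2 fold change of 0.51 ± 0.10 (SE) that did not pass edgeR's quasi-likelihood test (Benjamini-Hochberg adjusted p = 0.135) and passed DESeq2 (adjusted p = 0.00105, range over 16 alternatives 0.00105 to 0.451). A Cas9 cut can disrupt a protein without lowering its transcript, so these counts do not check the label, and IRF1-KO is used below as the label only. Of 10 ductal epithelial markers 9 were tested and expressed, with summed levels of 4556 to 7681 CPM in WT against 5151 to 7070 CPM in IRF1-KO, while CFTR averaged 0.404 CPM. Among leukocyte markers 4 of 7 were tested, led by CD68, with summed levels of 170 to 213 CPM in WT against 143 to 179 CPM in IRF1-KO. Of the fibroblast markers 3 of 6 passed the filter on low counts, as did 2 of 5 endothelial and 0 of 7 acinar and islet markers, of which CPA1, PTF1A and INS were at 0 in all libraries. Summed levels were 32.4 to 50.04 CPM in WT against 35.2 to 76.5 CPM in IRF1-KO for the fibroblast markers, and 5.36 to 7.40 against 7.09 to 8.17 CPM for the endothelial markers. The part of other cell types in the results below was not tested. In such bulk libraries fewer cells of a type and less RNA per cell cannot be told apart.

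A few of the sequences behind the results are shown here because members of complex I differ widely in base composition, and the libraries differed in their yield of GC-rich transcripts. Each line gives the first 90 coding bases, 5′ to 3′, of the longest protein-coding GENCODE 29 transcript of the gene, with G and C in capitals. NDUFS7, NDUFS8, NDUFB7 and NDUFAF8 come from transcripts of high GC content, NDUFC2 has groups that do not overlap but no GC-rich transcript, and NDUFS1 is a GC-poor core subunit for comparison.
NDUFS7: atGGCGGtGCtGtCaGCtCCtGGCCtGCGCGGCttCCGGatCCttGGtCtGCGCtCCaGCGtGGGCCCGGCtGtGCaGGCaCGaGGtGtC
NDUFS8: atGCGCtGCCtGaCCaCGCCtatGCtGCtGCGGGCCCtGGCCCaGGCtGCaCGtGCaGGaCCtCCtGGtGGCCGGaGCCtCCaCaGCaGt
NDUFB7: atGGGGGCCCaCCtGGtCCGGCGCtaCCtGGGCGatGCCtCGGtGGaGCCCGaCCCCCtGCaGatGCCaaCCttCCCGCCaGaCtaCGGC
NDUFAF8: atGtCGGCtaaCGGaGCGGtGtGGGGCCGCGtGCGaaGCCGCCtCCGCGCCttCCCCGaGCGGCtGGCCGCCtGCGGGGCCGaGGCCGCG
NDUFC2: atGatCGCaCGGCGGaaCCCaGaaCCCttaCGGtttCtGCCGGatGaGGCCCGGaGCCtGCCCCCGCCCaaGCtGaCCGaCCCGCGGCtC
NDUFS1: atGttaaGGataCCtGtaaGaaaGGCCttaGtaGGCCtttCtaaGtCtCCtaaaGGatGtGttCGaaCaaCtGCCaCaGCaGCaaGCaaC
G and C make up 70.0% of this stretch in NDUFS7, 70.0% in NDUFS8, 71.1% in NDUFB7, 78.9% in NDUFAF8, 68.9% in NDUFC2 and 44.4% in NDUFS1. Over the whole transcript the order is not the same: NDUFB7 has 65%, NDUFS7 64.9%, NDUFS8 63.3%, NDUFAF8 60.2%, NDUFC2 45.4% and NDUFS1 42.1%.

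Most complex I genes differed little between the groups, and the higher values in IRF1-KO were concentrated in a few subunits. Of the 47 members 46 passed the filter on low counts. None of these 46 passed edgeR's quasi-likelihood test at an adjusted p of 0.05, a threshold that 17 of 13388 tested genes passed (0.127%). At an unadjusted p of 0.05, 7 members were higher in IRF1-KO and 0 lower, where 5.39% of all tested genes were higher and 3.75% lower. The 7 are the subunits NDUFS7, NDUFS8, NDUFC2, NDUFA11, NDUFB7 and NDUFAB1 and the assembly factor NDUFAF8. In 10 members all IRF1-KO libraries were above all WT libraries, which held for 8.03% of all tested genes, and in 1 member every IRF1-KO library was below, which held for 6.75%. The fitted value was above 0 for 32 members and below 0 for 14, beside 6247 and 7141 of all 13388 tested genes. Of the 46 members, 37 differed by less than 1.2-fold in either direction, a share that is not given here for all tested genes. DESeq2 gave 3 members an adjusted p under 0.05, NDUFS7, NDUFS8 and NDUFC2, and called 2.48% of all tested genes.

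**Figure D1:**
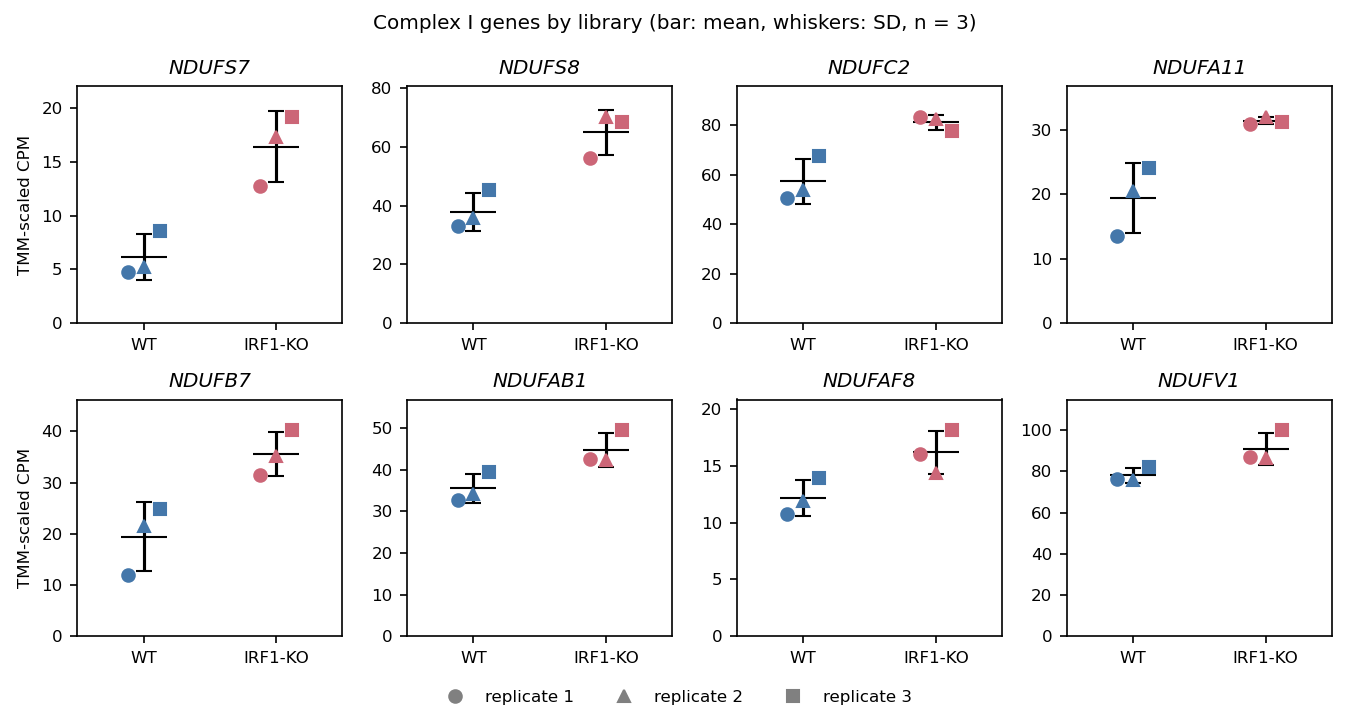
TMM-scaled CPM of 8 members in the 3 WT (blue) and 3 IRF1-KO (red) libraries, with the mean as a bar and the SD as whiskers (n = 3); marker shapes give the replicate number. In all 8 genes the IRF1-KO libraries lie above the WT libraries, narrowly so in NDUFV1. This holds by choice, since the 8 were taken from the 10 of 46 tested members whose groups were apart in this direction.

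The quinone-reducing core, where electrons leave the iron-sulphur chain for ubiquinone, held the subunits with the smallest p-values. NDUFS7 (chr19:1383527-1395589, plus strand, GRCh38) carries the last iron-sulphur cluster of the chain, next to the quinone site. It stood at 4.71, 5.17 and 8.60 CPM in WT and at 12.7, 17.3 and 19.2 CPM in IRF1-KO. The groups did not overlap, and the third WT library was the highest of its group. The means were 6.16 ± 2.13 and 16.4 ± 3.32 CPM (SD, n = 3 each), a log2 fold change of 1.41 ± 0.28 (SE), or 2.66-fold, and an adjusted p of 0.138 in edgeR. DESeq2 put its adjusted p at 0.000537, and over the 16 alternatives the value ranged from 0.000537 to 0.476. Without the third WT library the difference was 1.76 and passed edgeR's test (adjusted p = 0.0409).

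NDUFS8 (chr11:68030617-68036644, plus strand), an iron-sulphur protein that passes electrons on to NDUFS7, stood at 33.0, 35.7 and 45.3 CPM in WT. In IRF1-KO its level was 56.2, 70.3 and 68.4 CPM, so the groups were apart here too, with the third WT library again the highest of its group. The means of 38.0 ± 6.48 and 64.95 ± 7.68 CPM (SD) correspond to a log2 fold change of 0.77 ± 0.16 (SE), or 1.71-fold, and an adjusted p of 0.150 in edgeR and 0.00196 in DESeq2 (range over alternatives 0.00196 to 0.491). NDUFS3 (chr11:47565336-47584562), a subunit that joins the quinone-reducing and NADH-oxidising parts, had overlapping groups, at 65.3, 60.7 and 70.0 CPM in WT against 67.6, 58.7 and 76.9 CPM in IRF1-KO and a log2 fold change of 0.05 ± 0.13. Of its exon bases 22.3% lie within exons of PTPMT1 or CELF1, and its reads could be split among them. Over the 4 genes of the quinone-reducing core the median log2 fold change was 0.41, beside −0.02 for all tested genes. That median falls between the 0.05 of NDUFS3 and the 0.77 of NDUFS8 and is not a shift shared by all 4 genes. With the GC correction described below it was 0.30.

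The NADH-oxidising core, which holds the flavin and the first iron-sulphur clusters, showed no common difference. NDUFV1 (chr11:67605653-67612554), which binds NADH and the flavin, stood at 76.1, 75.9 and 82.1 CPM in WT and at 86.8, 86.3 and 99.9 CPM in IRF1-KO. The groups were apart by a small margin, with a log2 fold change of 0.22 ± 0.11 and an adjusted p of 0.608. NDUFS1 (chr2:206114817-206159509), the large iron-sulphur subunit, stood at 134, 131 and 120 CPM in WT and at 130, 99.8 and 147 CPM in IRF1-KO. Its IRF1-KO libraries spread on both sides of all WT libraries, and the log2 fold change was −0.03 ± 0.15. NDUFV2 (chr18:9102630-9134345), a small iron-sulphur protein beside NDUFV1, lay between 26.1 and 28.3 CPM in WT and between 25.1 and 28.6 CPM in IRF1-KO, with a log2 fold change of −0.02 ± 0.11. The signs of the NDUFS1 and NDUFV2 values turned with upper-quartile scaling and with a correction for GC content. The median over these 3 genes was −0.02, and their sums overlapped, at 230 to 236 CPM in WT against 211 to 275 CPM in IRF1-KO.

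The 30 accessory subunits divided into a handful with higher values in IRF1-KO and a majority near 0. Of them 4 were higher at an unadjusted p of 0.05 and 0 lower, beside 5.39% and 3.75% of all tested genes. All IRF1-KO libraries were above all WT libraries in 6 of the 30, beside 8.03% of all tested genes. NDUFB7 (chr19:14566078-14572066, minus strand) is a membrane-arm subunit on the side of the intermembrane space. It stood at 11.9, 21.6 and 24.9 CPM in WT and at 31.6, 35.2 and 40.2 CPM in IRF1-KO, a log2 fold change of 0.87 ± 0.26 and an adjusted p of 0.326. The first WT library was far under the other WT libraries for this gene, and without it the difference was 0.64, the lowest value with any 1 library left out. NDUFA11 (chr19:5891276-5904006, minus strand), a membrane-arm subunit near the contact with complex III in supercomplexes, stood at 13.5, 20.5 and 24.1 CPM in WT and at 30.9, 32.0 and 31.3 CPM in IRF1-KO. The WT libraries spread almost as widely as the groups differed, while the IRF1-KO libraries lay close together, and the log2 fold change was 0.70 ± 0.21 (adjusted p = 0.315).

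NDUFC2 (chr11:78068297-78079862, minus strand), a membrane-arm subunit, stood at 50.6, 53.7 and 67.6 CPM in WT. In IRF1-KO it was at 83.4, 82.4 and 77.6 CPM, above all WT libraries. The means of 57.3 ± 9.05 and 81.2 ± 3.08 CPM (SD) gave a log2 fold change of 0.50 ± 0.13 (SE), or 1.42-fold, and an adjusted p of 0.258 in edgeR and 0.0461 in DESeq2 (range over alternatives 0.0461 to 0.662). NDUFAB1 (chr16:23581014-23596316), the mitochondrial acyl carrier protein that also serves lipoic acid synthesis, stood at 32.8, 34.2 and 39.4 CPM in WT and at 42.5, 42.3 and 49.4 CPM in IRF1-KO, a log2 fold change of 0.34 ± 0.13 (adjusted p = 0.467). NDUFB6 (chr9:32553001-32573184), of the distal membrane arm, was at 34.9 to 40.6 CPM in WT and at 41.8 to 46.4 CPM in IRF1-KO, a log2 fold change of 0.26 ± 0.12. NDUFS5 (chr1:39026318-39034636), on the side of the intermembrane space, was at 92.6 to 102 CPM in WT and at 108 to 117 CPM in IRF1-KO, with a log2 fold change of 0.22 ± 0.10. These 3 differences were small and the groups narrowly apart, with adjusted p-values of 0.467 for NDUFAB1, 0.553 for NDUFB6 and 0.562 for NDUFS5 in edgeR. NDUFS5 has 6 named pseudogenes that could take or give reads.

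By name family, the 13 NDUFA genes (NDUFAB1 included) had a median log2 fold change of 0.01, with 8 above 0 and 5 below. The 11 NDUFB genes, which form the distal membrane arm, had a median of 0.05, with 7 above 0 and 4 below. The 6 other accessory subunits had a median of 0.22, with 5 above 0 and 1 below, and their summed levels were 295, 299 and 350 CPM in WT against 363, 368 and 378 CPM in IRF1-KO. Those sums were apart between the groups, whereas the sums of the NDUFA and NDUFB genes overlapped. The lowest value of any subunit was −0.17 in NDUFA5, whose groups overlapped, and NDUFA13, the subunit also known as GRIM-19, was at 0.00 ± 0.12. NDUFA5 and NDUFA13 were chosen for mention after their values were seen.

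**Figure D2:**
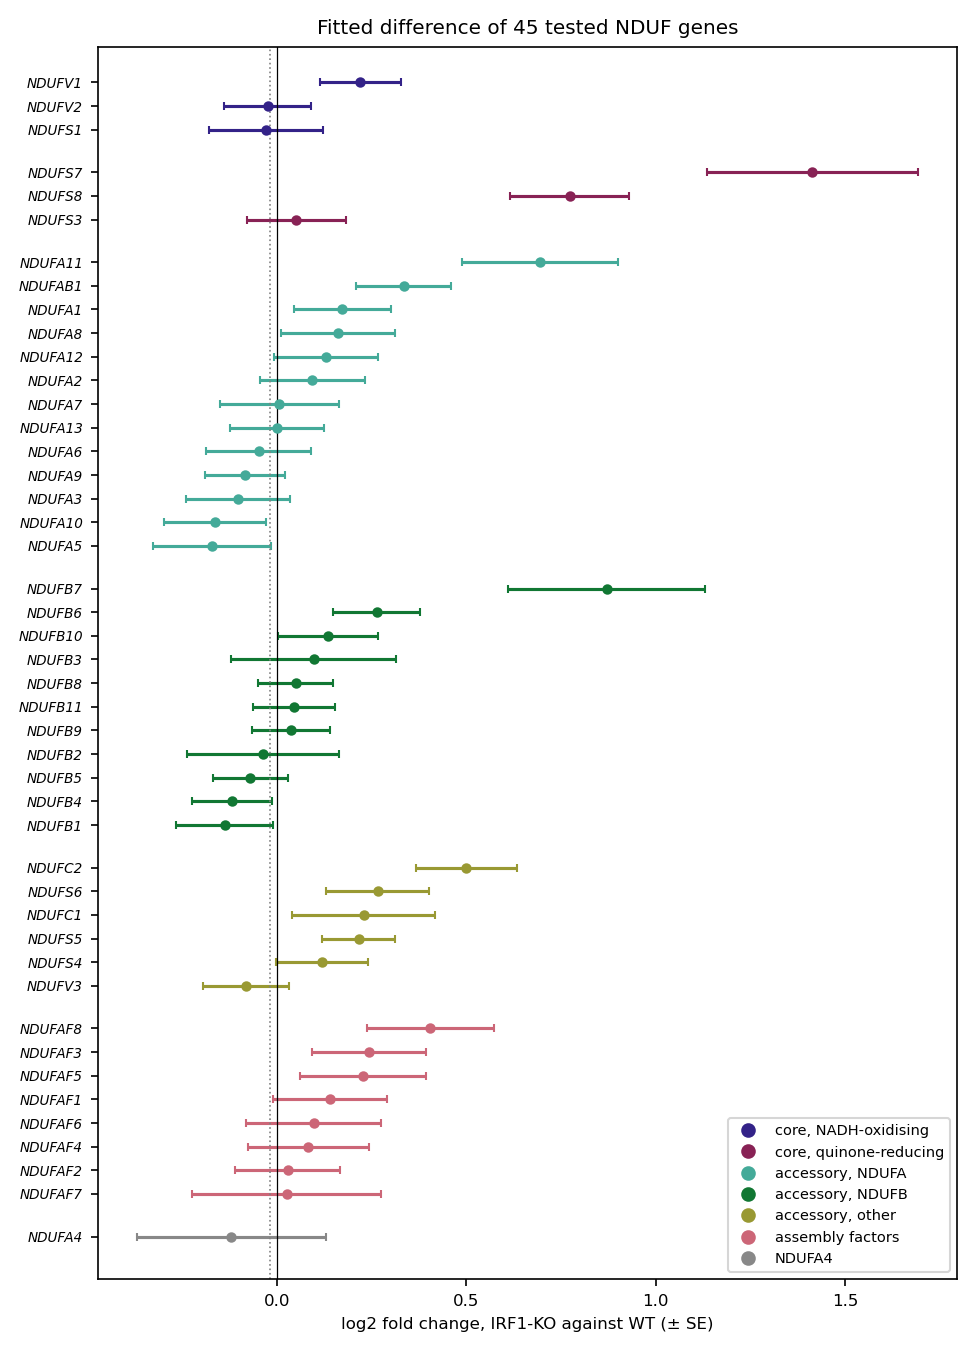
Fitted log2 fold change between IRF1-KO and WT (x axis, points with SE bars, n = 3 libraries a group) of 45 of the 46 tested NDUF genes, grouped and coloured by class; the dotted line is the median of all tested genes. NDUFS7, NDUFB7, NDUFS8, NDUFA11 and NDUFC2 lie at 0.50 or above, and all 8 assembly factors lie above 0 in this fit (NDUFAF3 is at −0.08 with the GC correction).

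The 8 NDUFAF assembly factors all had values above 0 as fitted, although NDUFAF3 turned below 0 with the GC correction described below and NDUFAF2 when the first library of either group was left out. With 1 library left out NDUFAF7 ranged from −0.25 to 0.21. The values were small, and 1 of the 8 was higher at an unadjusted p of 0.05, beside 5.39% of all tested genes. NDUFAF8 (chr17:81239305-81241310, plus strand), a small protein that stabilises NDUFAF5, stood at 10.8, 11.9 and 13.9 CPM in WT and at 16.0, 14.3 and 18.1 CPM in IRF1-KO. The groups were apart by less than 1 CPM, with a log2 fold change of 0.41 ± 0.17 (edgeR adjusted p = 0.524). NDUFAF5 (chr20:13785007-13821580), its partner, which hydroxylates NDUFS7 during assembly, was at 13.9, 11.6 and 16.1 CPM in WT and at 15, 17.4 and 16.4 CPM in IRF1-KO, a log2 fold change of 0.23 ± 0.17 with overlapping groups. NDUFAF3 (chr3:49020459-49023495), which acts with NDUFAF4 on the quinone-reducing module, was at 15.8, 15.8 and 15.4 CPM in WT and at 15.6, 20.9 and 19.03 CPM in IRF1-KO. Its log2 fold change was 0.24 ± 0.15 and its groups overlapped through the first IRF1-KO library. The DALRD3 gene on the opposite strand covers 21.7% of the exon bases of NDUFAF3, and the strand setting of the counting is not given in the sources used here. NDUFAF1 (chr15:41387353-41402519), of the complex that builds the membrane arm, had a log2 fold change of 0.14 ± 0.15 with 14.7 to 18.7 CPM in WT against 16.5 to 19.5 CPM in IRF1-KO. NDUFAF2, NDUFAF4, NDUFAF6 and NDUFAF7, the last a methyltransferase that acts during assembly, had values of 0.03, 0.08, 0.10 and 0.03 on the log2 scale, and their groups overlapped.

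Subunits and assembly factors were then set side by side. The median log2 fold change was 0.05 over the 37 subunits, with 24 above 0 and 13 below, and 0.12 over the 8 assembly factors, beside −0.02 over all 13388 tested genes, of which 6247 were above 0. The difference of the medians, subunits minus assembly factors, was −0.07. This is no larger than the spread within groups: taken library by library, the same difference was −0.03, 0.09 and −0.04 in WT and −0.03, −0.11 and 0.04 in IRF1-KO, with a within-group SD of 0.0756. Summed CPM of the subunits overlapped, at 1888, 1956 and 2113 in WT and 2083, 1998 and 2256 in IRF1-KO. Summed CPM of the assembly factors was 106, 105 and 120 in WT and 121, 121 and 127 in IRF1-KO, so that the third WT library fell just short of the lowest IRF1-KO library. Without the third WT library the subunit median was 0.13 and the assembly factor median 0.22. Without the third IRF1-KO library the subunit median was 0.02 and the difference of the medians −0.16.

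Single libraries stood out among the nuclear subunits. The first WT library was the lowest of all 6 in 18 of 37 subunits, and the third IRF1-KO library the highest of all 6 in 18. Over all 13388 tested genes, the same libraries were the lowest in 2593 and the highest in 2154. The assembly factors did not show the same counts, with the first WT library lowest in 1 of 8 and the third IRF1-KO library highest in 2. Among them the second WT library was lowest most often, in 4 of 8. The third WT library was the highest of its group in 26 subunits, and the second IRF1-KO library the lowest of its group in 21. Over all 13388 tested genes these counts were 4756 and 4577. Median deviations of the subunits from their own means were −0.14, −0.10 and 0.04 (log2) in WT and 0.03, −0.02 and 0.15 in IRF1-KO, so the third WT library lay among the IRF1-KO libraries. With the third WT library left out, 23 members had groups that did not overlap in either direction. With 2 against 3 libraries such a split is common: it held for 29.3% of all tested genes, so this count is not to be read against the 11 members found with all 6 libraries.

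**Figure D3:**
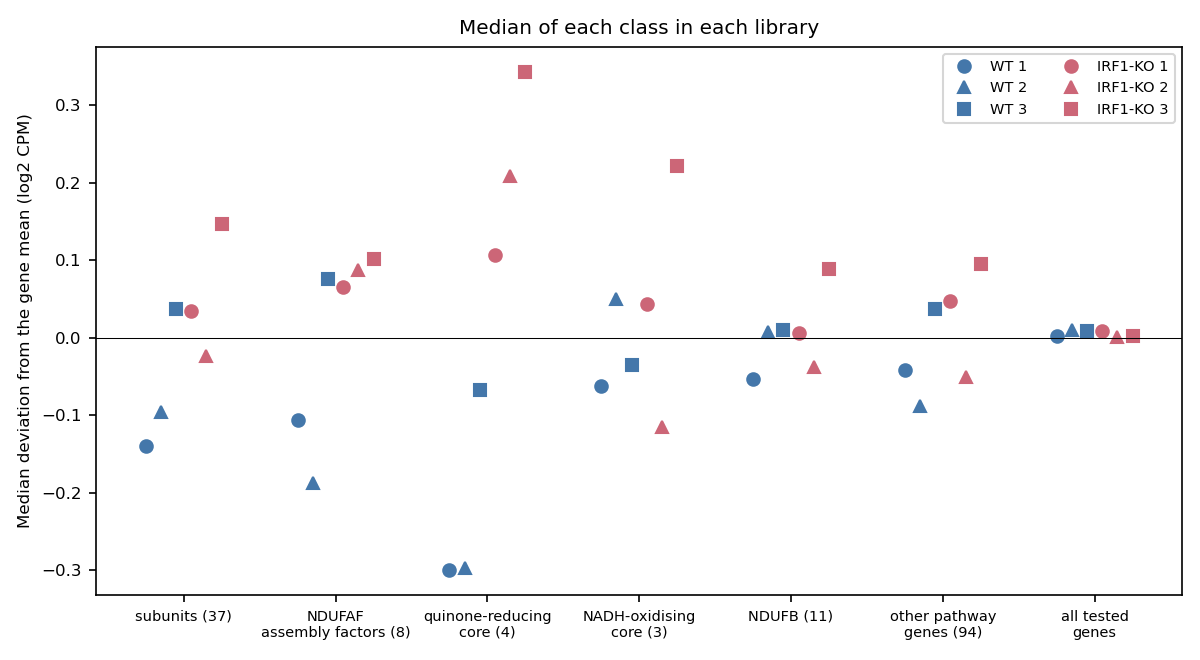
Median deviation of each gene class from its gene means (y axis, log2 CPM) in the 3 WT (blue) and 3 IRF1-KO (red) libraries, with marker shapes for replicates and the number of genes in brackets. The third WT library lies with the IRF1-KO libraries for subunits and assembly factors. The median of the 4 quinone-reducing core genes is apart between the groups, although not every gene among them is (NDUFS3 overlaps).

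Transcript GC content moved with the group difference, in complex I genes as in all genes. Over 477 tested genes of more than 65% GC, the median deviation from the gene mean was −0.59, −0.13 and −0.10 in the WT libraries and 0.10, 0.46 and 0.31 in the IRF1-KO libraries. Among members, the 8 with a GC content of 60% or more had a median log2 fold change of 0.55, all 8 were above 0, and 5 of the 7 higher at an unadjusted p of 0.05 were among them. The 24 members from 45% to 60% had a median of 0.10, and the 14 below 45% had a median of −0.03. Over all tested genes in the same 3 ranges the medians were 0.24 (1997 genes), −0.04 (6402) and −0.05 (4984). Of the 1997 genes in the highest range, 1529 (76.6%) lay above 0 and 485 were higher at the same unadjusted p. Values above 0 at high GC were thus not particular to complex I. Across the 46 members, Pearson's r between GC content and log2 fold change was 0.57 and Spearman's rho 0.44, a description over genes that share the same 6 libraries and are not independent, and r was 0.20 over all genes. NDUFA13 at 61.6% GC and NDUFB11 at 60% had values of 0.00 and 0.05.

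A correction that removes each library's smooth dependence on GC content, fitted over all genes, lowered the GC-rich values and slightly raised most others. NDUFS7 was then at 1.05 ± 0.24 (edgeR, unadjusted p = 0.00234, adjusted p = 0.263), NDUFS8 at 0.51 ± 0.13, NDUFB7 at 0.53 ± 0.19 and NDUFA11 at 0.50 ± 0.17. NDUFC2 stood at 0.54 ± 0.13 and NDUFAB1 at 0.38 ± 0.12, both slightly above their uncorrected values. NDUFAF8 was at 0.34 ± 0.18 with an unadjusted p of 0.0982, and NDUFAF3 turned to −0.08 ± 0.14. NDUFA13 went to −0.14 ± 0.14 and NDUFB11 to −0.02 ± 0.13. After the correction 8 members were higher at an unadjusted p of 0.05 and 0 lower, all 8 of them subunits, where 4.12% of all tested genes were higher and 3.53% lower. The medians were 0.10 for subunits and 0.13 for assembly factors, with 0.00 for all tested genes. Without the correction they were 0.05, 0.12 and −0.02. Pearson's r between GC content and the corrected values was 0.39 across the 46 members and −0.01 across all tested genes, again as a description. NDUFS7, NDUFS8, NDUFB7, NDUFA11, NDUFC2 and NDUFAB1 remained among the 8, joined by NDUFB6 and NDUFS5.

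**Figure D4:**
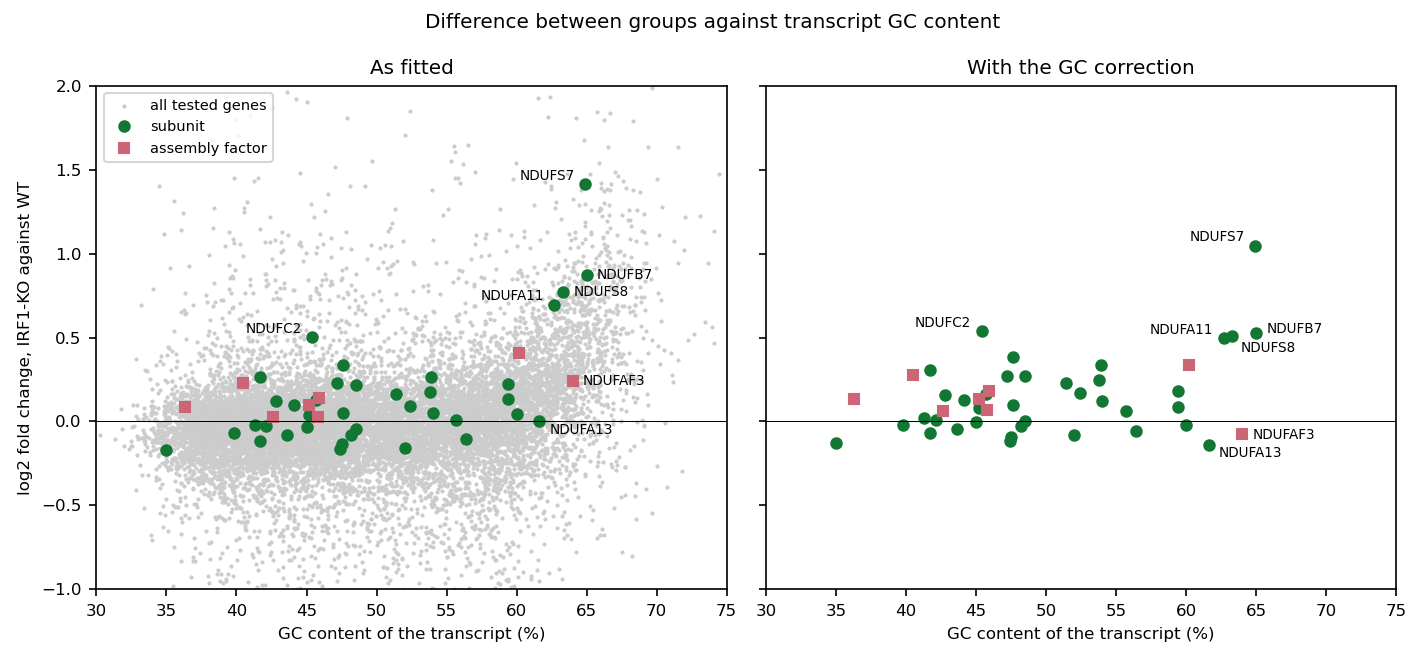
Log2 fold change between IRF1-KO and WT (y axis, drawn from −1 to 2) against transcript GC content in percent (x axis) for subunits (green circles), assembly factors (red squares) and, on the left, all tested genes (grey; genes outside the axes are not drawn). On the left NDUFS7 is at 1.41 and on the right, with the GC correction, at 1.05, while NDUFC2 is at 0.50 and 0.54.

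Chromosome 19 carries 6 members, NDUFA3, NDUFA7, NDUFA11, NDUFA13, NDUFB7 and NDUFS7. Of these 3 were higher at an unadjusted p of 0.05, and their median log2 fold change was 0.35 with a median GC content of 62.1%. All 949 tested genes of chromosome 19 had a median of 0.11 and a median GC content of 58.8%, and 164 of them were higher at that p. The 40 tested members on other chromosomes had a median of 0.09.

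Levels per length put the subunits well above their assembly factors. In WT the median level was 22.9 CPM per kilobase of exon over subunits and 5.43 over assembly factors, beside 5.39 over all tested genes. Of the 37 subunits 34 lay above that all-gene median, and 7 of the 8 assembly factors lay below the subunit median. NDUFS5 had the highest level of the subunits, 178 ± 9.03 CPM per kilobase in WT and 207 ± 8.46 in IRF1-KO (SD), followed by NDUFA1, of the membrane arm, at 131 ± 13.5 and 148 ± 15.4. NDUFS7 had the lowest, 0.826 ± 0.286 in WT and 2.20 ± 0.445 in IRF1-KO. The table's exon length of NDUFS7, 7456 bases over all its isoforms, is long beside a coding sequence of 618 bases, which lowers its level per length. Core subunits had a median of 10.5 CPM per kilobase in WT and accessory subunits one of 24.5, and 22 of 30 accessory subunits lay above the core median. Among core subunits in WT, NDUFS3 stood at 17.9 ± 1.29 and NDUFV1 at 15.4 ± 0.699. NDUFS1 at 10.5 ± 0.573 and NDUFV2 at 10.1 ± 0.447 differed by less than their spread, and NDUFS8 followed at 8.40 ± 1.43. Of the assembly factors, NDUFAF2, a paralog of the subunit NDUFA12, had the highest level, 24.0 ± 2.27 in WT and 24.5 ± 2.47 in IRF1-KO. NDUFAF8 at 9.11 ± 1.18 and NDUFAF1 at 9.25 ± 1.13 could not be told apart in WT, and NDUFAF6, which acts early on the quinone-reducing module, was the lowest at 1.27 ± 0.140.

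**Figure D5:**
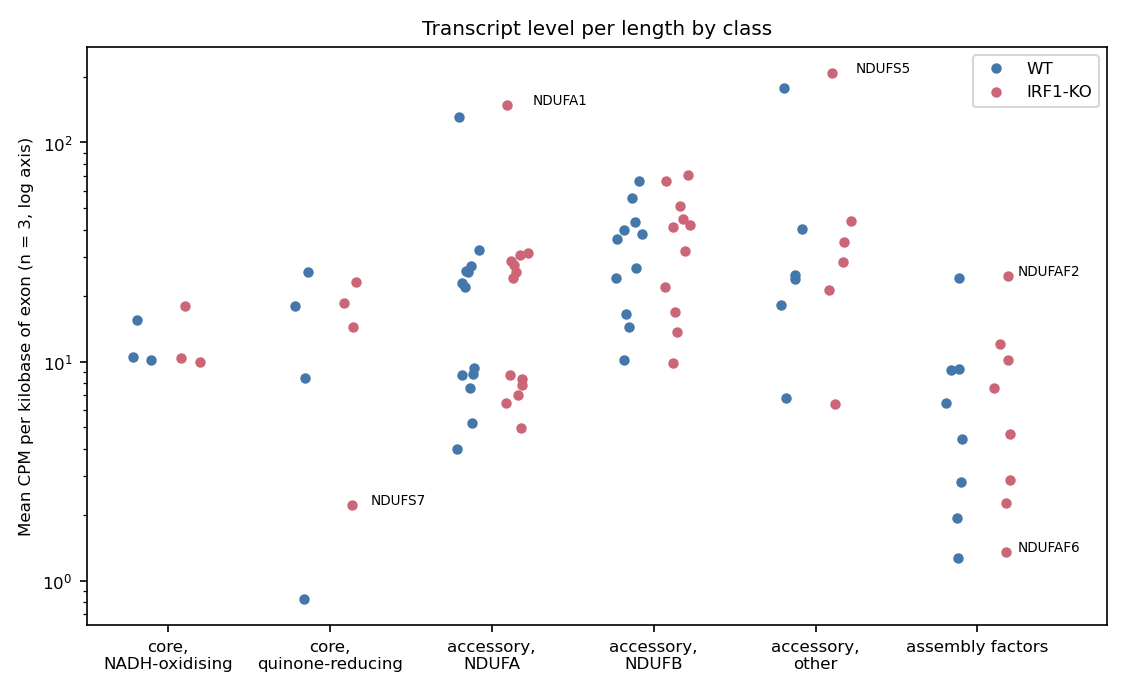
Mean TMM-scaled CPM per kilobase of exon (y axis, log scale) of the 37 subunits and 8 assembly factors in WT (blue) and IRF1-KO (red), each point 1 gene and the mean of 3 libraries, by class. NDUFS5 and NDUFA1 are the highest, NDUFS7 is the lowest subunit in both groups, and most assembly factors lie below most subunits.

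NDUFA4 and NDUFA4L2 carry the family name but are paralogs tied to complex IV. NDUFA4 (chr7:10931943-10940153) stood at 83.1, 91.3 and 136 CPM in WT and at 107, 67.3 and 112 CPM in IRF1-KO, with overlapping groups and a log2 fold change of −0.12 ± 0.25. Its sign turned when the third WT library was left out (0.15) or the second IRF1-KO library (0.08). NDUFA4L2 (chr12:57234903-57240715), known as a hypoxia-induced gene, had 1, 1 and 0 counts in WT and 2, 2 and 1 in IRF1-KO, did not pass the filter on low counts and was not tested.

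RefSeq's promoter table (GRCh38.p14) held 39 of the 47 members, with 51 windows from 250 bases before to 50 bases after a start. The letters CCGGAAG, as in sites of ETS factors, were found in 15.7% of these windows and in 10.3% of all 35116 windows. GCGCA and GCGC separated by 1 base, as in NRF1 sites, was in 13.7% of member windows and 5.78% of all. CACGTG, an E-box, was in 7.84% and 7.26%, and the members that hold it are NDUFA7, NDUFA11, NDUFAF5 and NDUFS7. A pair of GAAA words separated by a pair of bases, the core of interferon regulatory factor sites, was in 0 of the 51 member windows and in 3.57% of all. No motif contains another, all were searched on both strands, and a match is a description of the window only.

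The wider respiratory chain was read from 94 further genes, all of which were tested. Of these 0 passed edgeR's adjusted p of 0.05, and their median log2 fold change was 0.03. At an unadjusted p of 0.05, 7 were higher and 0 lower, beside 5.39% higher and 3.75% lower of all tested genes. The 7 include SCO2, which passed the filter on low counts only through its IRF1-KO libraries and should not be read as a result. DESeq2 gave UQCC3, an assembly factor of complex III, an adjusted p of 0.0329. UQCC3 stood at 5.69, 7.83 and 10.4 CPM in WT and at 14.3, 16.4 and 14.1 CPM in IRF1-KO, a log2 fold change of 0.90 ± 0.24 (edgeR adjusted p = 0.249, range over alternatives 0.0329 to 0.623). UQCR11, a small subunit of the same complex, was at 0.49 ± 0.14, and the 15 complex III genes had a median of 0.07. Of the 12 complex I assembly factors with other names 1 was higher at an unadjusted p of 0.05, DMAC1, which helps to build the distal membrane arm, at 0.64 ± 0.22. ECSIT, a partner of NDUFAF1, was at 0.42 ± 0.18, and the median of the 12 was 0.08. With the GC correction ECSIT was at 0.26 ± 0.14 and DMAC1 at 0.69 ± 0.22. The 7 complex I subunits encoded by mitochondrial DNA, which form the core of the membrane arm, had a median of −0.05 with 1 above 0, MT-ND3 at 0.24 ± 0.11, while MT-ND6 was at −0.24 ± 0.17 with all libraries and at −0.02 without the first WT library.

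Complex II genes had a median of −0.05 over 8, with SDHAF1, an assembly factor, at 0.55 ± 0.28 and SDHA, the flavin subunit, at −0.13 ± 0.10. With the GC correction SDHAF1 was at 0.31 ± 0.26 and SDHA at −0.06 ± 0.11. The 23 complex IV genes had a median of 0.09, with the subunit COX8A at 0.30 ± 0.11. SCO2, a copper chaperone of complex IV, stood at 0, 0 and 0.433 CPM in WT and at 0.793, 1.22 and 0.674 CPM in IRF1-KO, too few counts for a fold. The 18 ATP synthase genes had a median of 0.08, with the inhibitor ATP5IF1 at 0.29 ± 0.12. ATP5F1D, a subunit of its central stalk, was at 0.85 ± 0.30 as fitted and at 0.12 ± 0.19 with the GC correction, with a transcript of 69.6% GC. The 11 regulators of respiratory genes had a median of −0.03. At an unadjusted p of 0.05, 0 of the 11 were higher or lower, beside 5.39% higher and 3.75% lower of all tested genes. With so few genes this count is not read as a result about the regulators. The coactivator PPARGC1A stood at 10.2, 14.0 and 17.0 CPM in WT and at 24.4, 10.9 and 46.2 CPM in IRF1-KO, with overlapping groups. Its relative PPARGC1B was at 3.67, 5.22 and 7.11 CPM in WT and at 4.39, 2.51 and 1.95 CPM in IRF1-KO, a log2 fold change of −0.87 ± 0.39.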

How the data were processed

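Poly(A) RNA was sequenced from 3 WT and 3 IRF1-KO pools of CFPAC1 clones. The authors deposited 1 table of whole-number counts per gene whose columns follow the featureCounts layout, per the file headers. The submitters' processing notes name featureCounts 0.6.1, edgeR 3.2.2 and the GRCh38 (hg38) build. For aligner, annotation and strand setting the entry is: not given in the sources used here. Of 19402 rows 19342 were matched to current symbols, all 47 members among them. Total counts are given above; chi-square per degree of freedom between libraries of a group was 25.8 to 55.0, so none was a repeat of another.

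Counts were fitted in R 4.3.3 with edgeR 4.0.16 (filterByExpr, TMM, robust quasi-likelihood, two-sided, Benjamini-Hochberg over all tested genes); DESeq2 1.42.0 and limma-voom (limma 3.58.1) were alternatives, as were other scaling, filters, a replicate block, GC and exon length corrections and leaving out each library. The GC correction used splines of 5 degrees of freedom on the GC content of the longest protein-coding GENCODE 29 transcript. The script was tested on simulated data. Named genes are IRF1, the 7 nuclear core subunits (1 of which is not reported here), the 6 accessory subunits and 4 NDUFAF genes of smallest unadjusted p, the highest and lowest level in each class, NDUFA4 and NDUFA4L2, and 2 genes from each other list by p. Members and lists were chosen with earlier results of these data known. Reads of 16 members that share exon bases with another gene, and of 21 with named pseudogenes, may be split.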

Additional observations from a re-analysis of the deposited data

How the results depend on the processing

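Of 35 tested named genes, 29 kept their direction in every alternative that gave them a value (14 to 16 each). The count of members past the adjusted p was 3 with DESeq2 and 0 to 1 with 1 library left out. The count with groups that do not overlap was 6 with the GC and exon length correction, 6 higher and 0 lower. It was 13 to 23 with 1 library left out, where fewer libraries are compared. The 23, of which 22 were higher and 1 lower, came without the third WT library, where 29.3% of all tested genes did not overlap. For the other settings in this comparison the share of all tested genes is not given here, so their counts are not read as results about the members. With 1 library left out the subunit median ranged from 0.0240 to 0.130, the assembly factor median from 0.0882 to 0.224 and the subunit minus assembly factor difference from −0.157 to −0.0197. NDUFS1 changed sign with upper-quartile factors (0.00997), the GC correction (0.0107) and the GC and exon length correction (0.0128), and ranged from −0.157 to 0.11 with 1 library left out. NDUFV2 did so with upper-quartile factors (0.0150), the GC correction (0.0221), the same with the replicate block (0.0216) and the GC and exon length correction (0.00970), and ranged from −0.0675 to 0.0266. NDUFAF3 stood at −0.0777 with the GC correction, −0.0710 with the block added and −0.0857 with exon length added. With 1 library left out NDUFS3 ranged from −0.0508 to 0.145, NDUFAF2 from −0.00510 to 0.130 and NDUFA4 from −0.25 to 0.15. Why these values changed was not tested. Deviations of same-numbered libraries correlated at −0.02, 0.25 and 0.06, and those of differently numbered libraries at −0.30 to 0.25. These values do not settle whether the numbers pair the libraries. The replicate block changed the SE of NDUFS7 from 0.28 to 0.19 and that of NDUFC2 from 0.133 to 0.140. With the replicate block 7 members were past the unadjusted p, the subunit median was 0.0490, and 0 members passed the adjusted p. Depth limits NDUFA4L2 and SCO2, which had few counts.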
